A study of Mus musculus with 3 samples.

Results

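Regions of epididymal fat DNA that carried a methylation peak on a normal diet and on a high-fat diet with folic acid, and none on the high-fat diet alone, are described here. Peaks of the 3 deposited lists on the 19 autosomes were pooled, and peaks sharing at least 1 bp were merged into 154503 regions. Of these, 3569 (2.31%, Wilson 95% interval 2.24 to 2.39%) held at least 1 peak of the normal diet (ND), at least 1 of the folic acid diet (FAD) and none of the high-fat diet (HFD). Male C57BL/6J mice (also labelled C57BL/6) aged 6 weeks at the start received 10 weeks of 1 of the diets and were 16 weeks old at sampling. ND supplied about 10% of its energy as fat and HFD about 60%. FAD was the same high-fat feed with 20 μg/mL folic acid added to the water, so HFD and FAD share the high-fat feed and differ in folic acid. DNA came from epididymal adipose tissue, with 1 library per diet. The labels do not say whether DNA of several mice was pooled.

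MeDIP-seq, methylated DNA immunoprecipitation with sequencing, uses an antibody against 5-methylcytosine to enrich methylated fragments. In mammals the mark sits mostly on the cytosine of a CpG, a cytosine followed by guanine. Methyl groups for DNA come from S-adenosylmethionine, and the folate cycle helps remake its precursor methionine. Most of the mouse genome outside CpG-rich promoters is methylated, so enriched regions are spread over genes and the DNA between them.

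The members were chosen by peak calls, present in ND and FAD and absent in HFD, so presence, scores and widths are a description and carry no test. With 1 library per diet no difference between diets has a replicate check. Read depth is unknown from the lists, and intervals cover counting error over regions only. In whole tissue, a different mix of cells and a different methylation level within cells cannot be told apart. The lists hold no expression, so the tissue label could not be checked against marker genes. On autosomes the HFD list held 130093 peaks, the ND list 96063 and the FAD list 90352. Median peak widths were 585 bp in HFD, 504 bp in ND and 445 bp in FAD. The longest and widest list is therefore the one whose peaks must be missing.

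A few members overlapped the stretch around a gene start for which RefSeq gives a promoter sequence (build GRCm38.p6, the assembly of mm10). Their CpGs, written as capitals CG, are the sites where the mark can sit, and each line runs 5′ to 3′ over the 250 bases before the start site. The 6 highest-ranked ones with a gene symbol follow, ranked by the mean percentile of the ND and FAD scores within their own lists. They are Morf4l1b (chr19:41525002-41525251, plus strand), Trafd1 (chr5:121385616-121385865, minus), Capn15 (chr17:25965528-25965777, minus), Olfr984 (chr9:40101489-40101738, minus), Mobp (chr9:120149492-120149741, plus) and Ptpn20 (chr14:33589020-33589269, plus).
Morf4l1b: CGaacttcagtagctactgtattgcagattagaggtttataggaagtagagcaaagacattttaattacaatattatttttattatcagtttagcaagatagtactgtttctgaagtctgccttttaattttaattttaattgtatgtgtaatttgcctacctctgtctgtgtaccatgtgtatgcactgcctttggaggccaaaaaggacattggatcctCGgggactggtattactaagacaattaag
Trafd1: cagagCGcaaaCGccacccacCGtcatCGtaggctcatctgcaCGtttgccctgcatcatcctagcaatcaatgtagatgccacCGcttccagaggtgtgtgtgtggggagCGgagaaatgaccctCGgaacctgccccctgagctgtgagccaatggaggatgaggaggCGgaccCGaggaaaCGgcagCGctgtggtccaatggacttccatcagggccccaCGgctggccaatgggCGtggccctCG
Capn15: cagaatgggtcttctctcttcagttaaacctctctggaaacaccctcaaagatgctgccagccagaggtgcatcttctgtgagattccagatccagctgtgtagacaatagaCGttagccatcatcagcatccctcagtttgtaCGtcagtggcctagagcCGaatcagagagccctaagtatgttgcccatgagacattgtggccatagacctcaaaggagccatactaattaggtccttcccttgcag
Olfr984: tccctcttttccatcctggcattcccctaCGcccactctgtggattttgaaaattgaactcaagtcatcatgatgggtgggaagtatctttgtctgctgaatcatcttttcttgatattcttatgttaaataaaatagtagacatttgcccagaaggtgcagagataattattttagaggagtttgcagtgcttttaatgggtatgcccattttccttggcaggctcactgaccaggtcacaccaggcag
Mobp: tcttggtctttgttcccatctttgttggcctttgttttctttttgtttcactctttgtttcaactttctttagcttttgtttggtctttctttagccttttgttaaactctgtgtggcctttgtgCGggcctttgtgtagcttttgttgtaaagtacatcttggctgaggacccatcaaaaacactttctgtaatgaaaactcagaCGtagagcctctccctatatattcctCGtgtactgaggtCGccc
Ptpn20: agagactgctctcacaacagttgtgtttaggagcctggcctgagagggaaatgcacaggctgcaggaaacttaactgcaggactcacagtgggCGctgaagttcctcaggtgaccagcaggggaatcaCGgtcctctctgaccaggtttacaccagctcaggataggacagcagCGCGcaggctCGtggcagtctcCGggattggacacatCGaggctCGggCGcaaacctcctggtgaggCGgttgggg
Trafd1, which encodes a zinc finger protein that restrains innate immune signalling, had the most CpGs, with 21 in the whole 300-base entry. Only 6 of them lay inside the region, which covered 103 bases at the far end from the start site. Its region scored 103.7 in ND and 86.9 in FAD, and the nearest HFD peak was 6807 bp away. Ptpn20, a protein tyrosine phosphatase gene, had 12 CpGs, 11 of them inside its region (72.1 in ND, 67.3 in FAD). Mobp, which encodes a myelin protein, was covered over all 300 bases and held 5 CpGs (68.3 in ND, 74.0 in FAD). Capn15, a calpain protease gene, held 3 CpGs, all inside a region that scored 131.5 in ND and 66.9 in FAD and lay 22559 bp from the nearest HFD peak. Morf4l1b had 3 of 4 CpGs inside its region, and the olfactory receptor gene Olfr984 had 1 of 2.

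Over all 31396 promoter entries on the 18 autosomes in that table, members overlapped 24, of which 9 belonged to protein-coding genes and 15 to long non-coding RNA genes. The 9 are 0.0547% of 16457 protein-coding genes with an entry. On those autosomes 0.694% of members (0.467 to 1.03%) touched an entry, against 1.05% of all merged regions. The share was 1.12% for regions missing in FAD and 1.03% for those missing in ND. For ND alone it was 0.747% and for FAD alone 0.514%, so the members were not set apart from these. In those 24 entries the median was 5 CpGs per 300 bases (quartiles 4 and 7.25), and 1 entry, that of Trafd1, had 15 or more. Entries overlapped by regions in ND and HFD but not FAD had a median of 7 CpGs over 200 entries, with 15 or more in 8.50%. For regions in HFD and FAD but not ND the median was also 7, over 143 entries, with 15 or more in 12.6%. Medians were 7 for regions of ND alone and 6 for those of HFD alone and of FAD alone. Among these, 6.59, 5.11 and 11.1% of entries had 15 or more. Regions in all 3 libraries gave a median of 8, with 15 or more in 15.8%. Entries touched by no region had a median of 7 and reached 15 CpGs in 36.5%. CpG-rich entries were thus few among promoters with a peak of any of these patterns, members included. Of motifs that hold a CpG, read on both strands, the cAMP response element TGACGTCA was in 1 of the 24 entries and in 1.83% of all entries. The E-box CACGTG was in 2 of 24 and in 7.14% of all. The palindromic NRF1 motif was in 0 of 24 and in 0.968% of all.

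Members made up the rarest of the 7 patterns of presence. All 3 libraries shared 61740 regions, ND and HFD without FAD shared 17151, and HFD and FAD without ND shared 13048. HFD alone held 37304, ND alone 11804 and FAD alone 9887. The count moved with the length of the lists. When each list was limited to its 95501 top-scoring peaks, 7811 regions were in ND and FAD only, still fewer than the 10403 in ND and HFD only and the 9430 in HFD and FAD only.

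**Figure D1:**
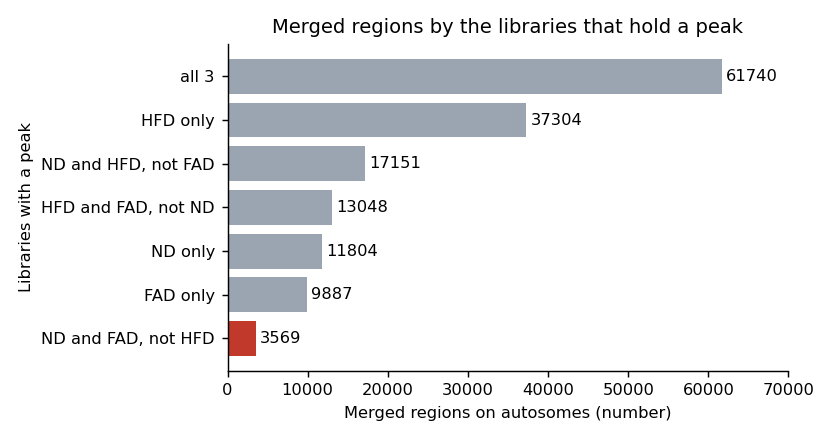
Number of merged regions on autosomes (horizontal axis) for each set of libraries with a peak (vertical axis), 1 library per diet. The 3569 regions in ND and FAD and not HFD, in red, are the shortest bar, and the 61740 regions in all 3 libraries the longest.

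A region with an ND peak and no HFD peak seldom had a FAD peak. Of 15373 such regions, 3569 (23.2%, 22.6 to 23.9%) also had one, whereas 78.3% of the 78891 regions with ND and HFD peaks did. Read from the folic acid side, 26.5% of 13456 regions with a FAD peak and no HFD peak had an ND peak, against 82.6% where HFD had a peak. Such low shares were not limited to a missing HFD peak. With an HFD peak and no ND peak 25.9% had a FAD peak, and with an HFD peak and no FAD peak 31.5% had an ND peak. The share grew with the strength of the ND peak. In decile 1 of the ND list, the lowest by score, 16.7% of regions without an HFD peak had a FAD peak (15.6 to 17.8%, 733 of 4386). In decile 6 the share was 39.5% (36.1 to 42.9%, 309 of 783), and in decile 8 65.3% (56.5 to 73.2%, 79 of 121). At each of these levels the share was lower than for ND regions with an HFD peak, where it was 46.4%, 78.8% and 95.1%. In decile 9 14 regions had no HFD peak and 9 of them had a FAD peak, and in decile 10 no ND region lacked an HFD peak.

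**Figure D2:**
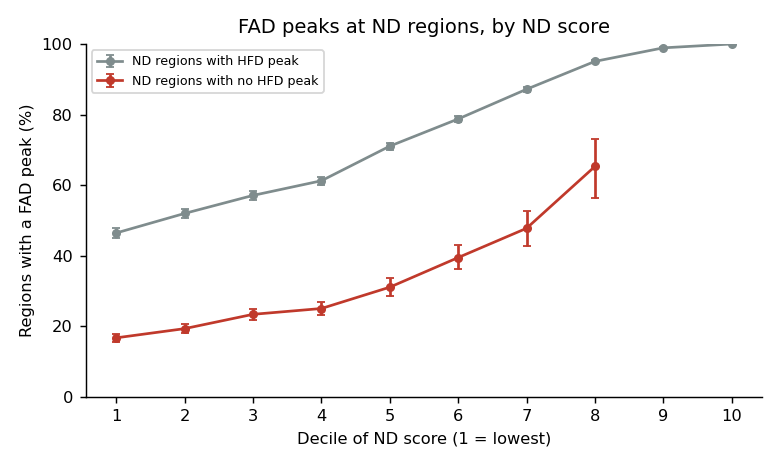
Share of ND regions that also held a FAD peak (vertical axis, percent, with Wilson 95% intervals) by decile of the ND score (horizontal axis), for regions with and without an HFD peak. Points with fewer than 20 regions are left out. Both lines rise, from 16.7 to 65.3% without an HFD peak and from 46.4% to nearly all with one.

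Members were weak peaks in both libraries. The authors' score, whose scale is not stated and whose lowest value in each list is 50, had a median of 70.8 in ND (quartiles 60.0 and 89.4) and of 69.7 in FAD (59.9 and 86.7). Regions in all 3 libraries had medians of 134.6 in ND and 120.1 in FAD. Weak peaks were common to every pattern that lacked a library, with an ND median of 75.5 in ND and HFD only, a FAD median of 74.1 in HFD and FAD only, and medians of 64.2 in ND alone and in FAD alone. Of the 3569 members, 2593 lay in the lower-scoring 50% of both lists and 169 in the upper 50% of both. A score of 100 or more in both libraries was reached by 147 (4.12%), and of 200 or more by 2. The scores in the 2 libraries were loosely related over members. Spearman's rho between their percentiles was 0.27 over 3569 regions, where regions in all 3 libraries gave 0.73 over 61740, a description without a test over points that share 2 libraries. The other patterns with 2 libraries gave 0.28 (ND and HFD) and 0.30 (HFD and FAD), close to the members. Neither library led, since the percentile was higher in ND at 1769 members and in FAD at 1800.

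**Figure D3:**
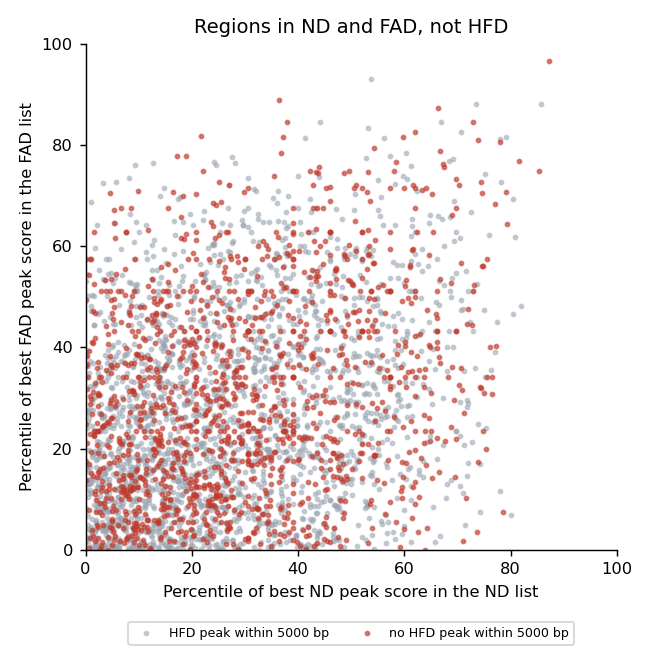
Percentile of the best ND peak in the ND list (horizontal axis) and of the best FAD peak in the FAD list (vertical axis) for each of the 3569 members, coloured by whether an HFD peak lies within 5000 bp. Points crowd the lower left, and 169 lie above 50 on both axes.

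Nearly every member was a single pair of peaks. A pair of 1 ND and 1 FAD peak made up 3556 members, and 13 held more. In the pairs the ND peak had a median width of 473 bp and the FAD peak of 414 bp, and the ND peak was the wider in 70.2%. Their overlap had a median of 364 bp, which was 97.3% of the FAD peak and 82.2% of the ND peak. In 92.7% of pairs the overlap covered at least 50% of each peak, and midpoints lay a median of 43.5 bp apart. The FAD peak therefore usually sat at the same place as the ND peak, inside or nearly inside it. Members spanned 180 to 9340 bp with a median of 513 bp, and 7 were 2000 bp or wider.

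How far the missing library was from a peak differed widely between members. The median distance to the nearest HFD peak was 3399 bp (quartiles 1085 and 9340). It was 500 bp or less at 433 members (12.1%) and more than 5000 bp at 1405 (39.4%). The near ones had median scores of 68.0 in ND and 68.1 in FAD. Members more than 5000 and up to 20000 bp from an HFD peak had medians of 72.3 and 71.4, and the 383 members beyond 20000 bp had 73.2 and 74.9. For regions missing in FAD the median distance to a FAD peak was 7376 bp, and for regions missing in ND it was 6725.5 bp to an ND peak. The FAD and ND lists hold fewer peaks than the HFD list, and the part of list length in these distances was not tested. At the limit of the rule, 8 members had an HFD peak 0 to 10 bases away, and the smallest gap was 0 bases. Of the ND and FAD regions that failed the rule, 3 overlapped HFD peaks by 1 to 10 bases. Median scores of the 81 members with an HFD peak 0 to 100 bases away were 67.8 in ND and 65.6 in FAD. For the 32 regions just outside the rule, with an HFD overlap of 1 to 100 bases, they were 78.0 and 65.0.

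**Figure D4:**
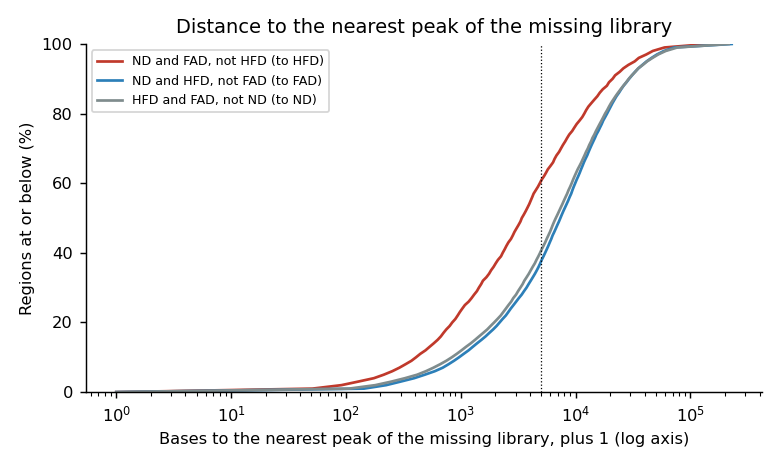
Cumulative share of regions (vertical axis, percent) by bases to the nearest peak of the library that lacks one (horizontal log axis, plus 1) for the 3 patterns with 2 libraries. The dotted line marks 5000 bp, beyond which lie 39.4% of members and 62.4 and 59.5% of the other 2 patterns.

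Most members had no region common to all diets within 5000 bp, and the median distance to one was 9334 bp. Medians of the other patterns ran from 10225.5 bp for ND alone to 12063 bp for HFD alone. Within 5000 bp, 1287 members (36.1%, 34.5 to 37.7%) had a region present in all 3 libraries. The share was 26.2% (25.5 to 26.8%) for regions missing in FAD and 26.3% (25.5 to 27.0%) for those missing in ND. Regions of ND alone and FAD alone stood between, at 31.1 and 31.2%, and HFD alone was lowest at 23.6%. The nearest HFD peak belonged to a region common to all 3 libraries for 49.9% of members, where such regions are 47.8% of all regions with an HFD peak. Its median score was 102.5, where all HFD peaks on autosomes had 100.2.

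By midpoint, 1521 members (42.6%, 41.0 to 44.2%) lay between gene records, 1701 (47.7%) inside a gene record and 347 (9.72%) at a gene end. A gene end here runs from 2000 bp outside to 500 bp inside either end of a RefSeq gene record. The share between genes was 33.4% (32.7 to 34.1%) for regions missing in FAD and 36.8% (36.0 to 37.6%) for those missing in ND, both below the interval of the members. Regions in all 3 libraries gave 39.5% and those of ND alone 39.9%, also below that interval. Those of FAD alone gave 42.5%, level with the members. Among members more than 20000 bp from an HFD peak, 58.2% lay between genes. Other patterns were not split by distance, so this value shows no trait particular to members.

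Members were 1.93% of merged regions on chromosome 9 (1.66 to 2.26%) and 2.70% on chromosome 12 (2.35 to 3.10%), with the others between. These intervals do not overlap, and both leave out the 2.31% of all autosomes. The intervals of the other autosomes include that share. Chromosomes 9 and 12 were picked as the extremes after the values were seen. Along the chromosomes members were scattered. Of the runs of consecutive merged regions that were all members, 3409 were of length 1, 74 of length 2 and 4 of length 3. Among 2412 windows of 1 Mb with any merged region, 646 held no member, 1297 held 1 or 2 and 91 held 5 or more. The window with most members lay on chromosome 8 from 20000001 to 21000000, with 11 members among 90 merged regions (12.2%). On chromosome 5, adjoining windows from 93000001 to 95000000 held 7 and 10 members, with 4 and 8 records of the Pramel family. Another on chromosome 5, from 11000001 to 12000000, held 7 of 56 (12.5%). In the first and last of these, 23 of 25 and 36 of 38 gene records bore gene-model names, against 47.5% over the autosomes. Some of these genes are copies of each other, and reads from near-identical copies cannot be placed with certainty, so these windows are uncertain. How the authors treated such reads is not stated in the labels. On chromosome 6 the window from 114000001 to 115000000 held 10 of 98 (10.2%) and covers Atp2b2, a calcium pump gene, and the autophagy gene Atg7.

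By the mean of their percentiles, 7 of the 12 highest members were between genes, 3 inside a gene record and 2 at a gene end. Over all members 42.6% lay between genes. For 7 of the 12 no HFD peak lay within 5000 bp, where 39.4% of all members had none. A set of 12 is too small to read a trait of strong members from these counts. The highest, on chromosome 6 from 47684317 to 47687143, scored 244.9 in ND and 408.0 in FAD and had no HFD peak for 49909 bp. It spanned 2827 bp inside Gm40363, a predicted gene record, and lay 89046 bp from Ezh2, which encodes the methyltransferase of histone H3 lysine 27. Both of its scores are the highest among all members. On the same chromosome, another wide member from 47762347 to 47766528 spanned 4182 bp and scored 103.5 in ND and 68.5 in FAD, with an HFD peak 2423 bp away.

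The second, on chromosome 12 from 20226127 to 20226785, had nearly equal scores of 231.2 in ND and 231.2 in FAD, but an HFD peak lay only 650 bp off. A region on chromosome 1, from 162761912 to 162762377, scored 185.2 in ND and 183.2 in FAD and ended 8 bp from an HFD peak. These examples are neighbours of HFD peaks, not isolated sites. On chromosome 13 from 102485830 to 102486131, a narrow member of 302 bp scored 226.8 in ND and 153.6 in FAD, 6066 bp from HFD. On chromosome 3 from 44080157 to 44081109, a member with 179.4 in ND and 178.4 in FAD had the nearest HFD peak 6951 bp away. Chromosome 8 held one from 55839448 to 55839887 with 200.2 in ND and 161.3 in FAD, 8681 bp from HFD.

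Several of the strong and isolated members lay inside named genes. Gtdc1, a glycosyltransferase-like gene, held one on chromosome 2 from 44611174 to 44611988, with 160.9 in ND and 180.4 in FAD and no HFD peak for 28183 bp. Bbs9, a gene of the BBSome complex of primary cilia, held one on chromosome 9 from 22720047 to 22720583 (135.2 in ND, 224.2 in FAD, HFD 8790 bp away). Dnajc1, a chaperone cofactor gene, held one with 163.0 in ND and 145.4 in FAD. Prkdc, which encodes the catalytic subunit of DNA-dependent protein kinase, held one with 175.2 in ND and 132.1 in FAD and an HFD peak 14068 bp away. A member 13444 bp from Tcf21, a transcription factor gene of mesenchymal and preadipocyte lineages, scored 136.1 in ND and 169.8 in FAD. None of these lay within 5000 bp of an HFD peak.

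The widest member, on chromosome 12 from 112775769 to 112785108, spanned 9340 bp of Ahnak2, a gene of a giant scaffold protein. It held 2 ND and 3 FAD peaks, with best scores of 83.1 and 184.1, and the nearest HFD peak was 9643 bp away. Sfi1, a centriole-associated gene, held another wide one of 3736 bp with 106.9 in ND and 301.6 in FAD. The member farthest from HFD lay in Grm7, a metabotropic glutamate receptor gene, on chromosome 6 from 111153859 to 111154371. It scored 95.05 in ND and 90.2 in FAD, with no HFD peak for 141384 bp. The next ones, 104763 to 116293 bp from HFD, were weaker in ND and included one in Csmd3 (54.1 in ND, 91.7 in FAD).

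At protein-coding genes, 168 of 20665 (0.813%) had a member at a gene end. A member with no HFD peak within 5000 bp lay at a gene end in 43 (0.208%), and 109 (0.527%) had a member and no HFD peak at either gene end. Regions missing in FAD touched gene ends of 5.48% of genes and those missing in ND of 3.5%. Of members, 4.37% (3.75 to 5.09%) touched such a gene end, compared with 5.92% (5.57 to 6.28%) and 5.17% (4.81 to 5.57%) of those other patterns. Regions of ND alone gave 4.72% and of FAD alone 4.10% (3.72 to 4.51%), so the members were not set apart from these. The strand was known for 134 of the 168 genes. The highest-ranked member of the gene lay at the 3′ end in 79, at the 5′ end in 53 and across both in 2. This split was not counted for other patterns or for all regions, so it shows no trait particular to members.

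Among the 20 highest-ranking genes, ND scores ran from 67.1 to 179.3 and FAD scores from 75.7 to 185.4. ND was the higher at 10 and FAD at 10. The olfactory receptor gene Olfr1459 came first, with 179.3 in ND and 181.2 in FAD beyond its 3′ end on chromosome 19 (13144655 to 13145311). An HFD peak lay 1485 bp from it. Bend6, a BEN domain gene, scored 102.3 in ND and 138.7 in FAD, and Mink1, a kinase gene, 101.8 and 129.8. Mink1 was the 1 gene of the 20 with an HFD peak elsewhere at its ends.

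At 9 of the 20 the member had no HFD peak within 5000 bp. Lias, which encodes lipoic acid synthetase of mitochondria, had a member at its 5′ end on chromosome 5 from 65389243 to 65389702. It scored 94.3 in ND and 134.0 in FAD, with HFD 8119 bp away, and lay inside the record of the neighbouring ribosomal protein gene Rpl9. S100a4, a calcium-binding protein gene, had one at its 5′ end on chromosome 3 from 90601700 to 90602064. That peak was strong in ND at 149.4 and weaker in FAD at 75.7, and the closest HFD peak was 14992 bp off. Tyr, the tyrosinase gene of melanin synthesis, showed the reverse order, with 67.1 in ND and 185.4 in FAD at its 3′ end on chromosome 7 (87422759 to 87423378).

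Epx, which encodes the peroxidase of eosinophils, was even, with 101.5 in ND and 99.3 in FAD at its 3′ end. Slk, a kinase gene, scored 124.9 in ND and 82.2 in FAD at its 5′ end, 5087 bp from HFD. Morf4l1b, whose promoter is shown above, scored 72.4 in ND and 143.2 in FAD. Olfr1261 (168.1 in ND, 77.8 in FAD) and the zinc finger gene Zfp960 (124.5 and 98.0) were 21211 and 46416 bp from HFD. Skint7, of a family of epithelial T-cell selection genes, scored 91.1 in ND and 102.7 in FAD. Of the 9, the ND score was the higher at 5 and the FAD score at 4.

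**Figure D5:**
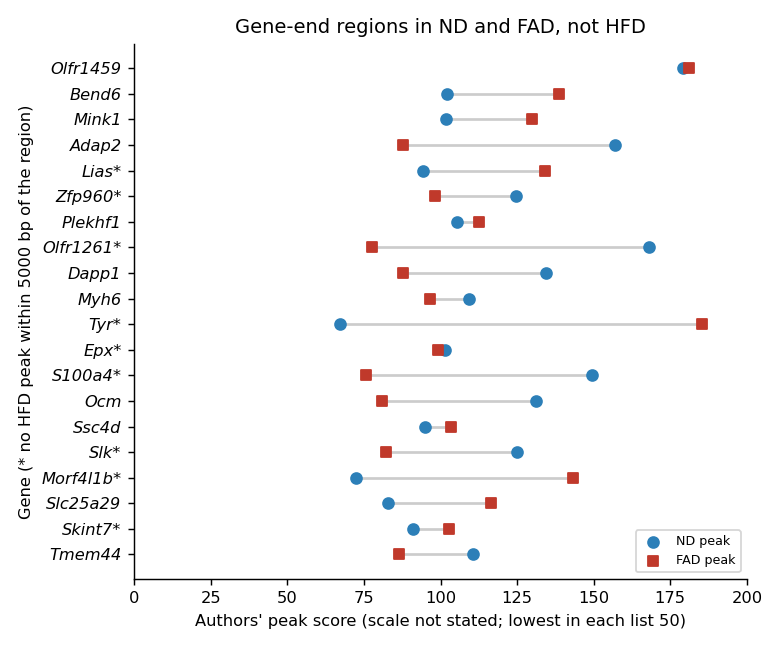
The authors' score (horizontal axis) of the best ND peak (circles) and FAD peak (squares) for the 20 highest-ranking genes with a member at a gene end, top rank first. A star marks the 9 genes whose member has no HFD peak within 5000 bp. The gap between circle and square is widest for Tyr, at 67.1 and 185.4.

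Genes of metabolism and signalling rarely carried a member at a gene end. Of 32 gene lists, 25 had no member there, among them insulin signalling (0 of 50), inflammation (0 of 57), adipogenesis and adipokines (0 of 43), lipid synthesis and breakdown (0 of 53), thermogenesis (0 of 38), imprinted genes (0 of 47) and germline genes (0 of 59). With 0.813% of all genes called, lists of this size hold few or none. Markers of adipocytes (0 of 10), leukocytes (0 of 8), endothelium (0 of 5), mesothelium and fibroblasts (0 of 8) and epididymis (0 of 6) had none either. Among 59 genes of folate and methyl group metabolism, 1 did. It was Mtr, which encodes methionine synthase, the enzyme that passes the methyl group of folate to homocysteine. The member lay outside the record, within 2000 bp of its 5′ end, on chromosome 13 from 12260034 to 12260803. It scored 54.0 in ND and 54.8 in FAD, near the lowest value of the lists, and lay 6659 bp from an HFD peak. This call was lost with windows of 1000 bp, with reciprocal overlap of 50% and with the top-scoring 50% of each list, where 0 genes of the list had a member. A second member inside Mtr, from 12218516 to 12218995, scored 73.0 in ND and 58.5 in FAD, 1279 bp from HFD. Of 33 genes of DNA methylation and its removal, 1 had a member, Smug1, a uracil-DNA glycosylase gene of base excision repair (82.3 in ND, 51.3 in FAD, an HFD peak 228 bp away). That call went to 0 with the top-scoring 50% of each list, with peaks within 500 bp joined and with no HFD peak within 5000 bp.

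Gene families also gave low counts, to be set beside the 0.813% of all genes. Olfactory receptor genes had 7 of 1104 (0.634%), zinc finger genes 2 of 388 (0.515%) and solute carrier genes 2 of 362 (0.552%). Potassium channel genes had 2 of 92 (2.17%) and keratin genes 1 of 53 (1.89%), higher shares that rest on 2 genes and 1 gene. The solute carriers were Slc25a29, a mitochondrial carrier of basic amino acids (82.9 in ND, 116.6 in FAD), and Slc22a7 (61.7 and 52.6), each within 502 bp of an HFD peak. The potassium channel list held Kcng1 (122.1 in ND, 72.7 in FAD) and Kcnrg (64.6 and 98.0). The keratin gene was Krt222 (70.7 in ND, 62.2 in FAD, HFD 12064 bp away). Olfactory receptor and zinc finger genes have close copies, so the placing of their reads is uncertain. Hox cluster, clustered protocadherin, beta-defensin and vomeronasal receptor genes had none.

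Inside gene records, with 2000 bp on each side, 1510 protein-coding genes (7.31%) held a member. Long genes hold more regions of every kind, so members were also counted as a share of the merged regions in those records, which was 2.08% over all protein-coding genes. List shares ran from 0, as in Hox cluster genes (0 of 35), to 3.48% in olfactory receptor genes (8 of 230). Their intervals all include the 2.08%, but many are wide, so they do not show that the lists are close to it. Lipid synthesis and breakdown genes held 8 members among 286 merged regions (2.80%, 1.42 to 5.42%), at 8 of 53 genes. They were Acly and Fasn, of fatty acid synthesis from citrate, Acacb, Me1, the desaturase genes Scd1 and Scd4, the lipid droplet gene Plin2 and the cholesterol exporter gene Abca1. Acly scored 110.2 in ND and 59.6 in FAD, and Fasn 106.9 and 67.4, both with an HFD peak within 922 bp. Me1, of NADPH supply, was the 1 of the 8 with no HFD peak within 5000 bp, the nearest being 9733 bp away (68.1 in ND, 87.7 in FAD).

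Insulin signalling genes held 6 among 396 (1.52%, 0.696 to 3.27%). The kinase gene Akt2 scored 84.0 in ND and 108.9 in FAD, Pik3cb of phosphoinositide 3-kinase 123.4 and 98.0, and Pik3r1, its regulatory subunit gene, 52.6 and 53.2. Rptor, of the mTORC1 complex, was the 1 gene of the 6 with no HFD peak within 5000 bp (51.9 in ND, 52.1 in FAD). Adipogenesis and adipokine genes held 5 among 321 (1.56%), with Zfp423, a preadipocyte commitment factor, and Gata3, which restrains adipogenesis, at 14575 and 14599 bp from HFD. Their scores were 50.12 and 50.02 in ND and 69.0 and 60.9 in FAD. Thermogenic and mitochondrial genes held 5 among 273 (1.83%). Ppargc1a, the coactivator of mitochondrial biogenesis, had one on chromosome 5 from 51490495 to 51490846, with 94.3 in ND, 92.0 in FAD and HFD 16646 bp away, 1 of 36 merged regions of that gene.

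Folate and methyl group genes held 5 among 242 (2.07%). Besides the pair in Mtr they were in Fpgs, which adds glutamates to folate (72.0 in ND, 54.0 in FAD), Chdh, of betaine synthesis (73.3 and 65.5), and Mmab, of cobalamin activation (71.2 and 50.2). Each of those 3 lay 544 to 2158 bp from an HFD peak. Genes of cAMP signalling held 9 among 529 (1.70%), with Atf1 (111.0 in ND, 70.0 in FAD) and the phosphodiesterase gene Pde7b (107.0 and 62.1) highest in ND. Inflammation genes held 3 among 116, at Cxcl12, Tlr2 and Nos2, all within 2239 bp of an HFD peak.

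Extracellular matrix genes held 8 among 384 (2.08%). Lama2, which encodes the laminin alpha chain of muscle and fat basement membrane, held a narrow one on chromosome 10 from 27044402 to 27044648 with 168.1 in ND, 108.6 in FAD and no HFD peak for 53506 bp. Fbln1, the fibulin gene, scored 135.1 in ND and 84.1 in FAD, 10516 bp from HFD. Imprinted genes held 5 among 262 (1.91%). At Igf2, the growth factor gene expressed from the paternal copy, the member (chromosome 7, 142651836 to 142652466) was the 1 merged region of the record, with 126.5 in ND and 87.7 in FAD and HFD 6873 bp away. Ppp1r9a scored 56.7 in ND and 127.8 in FAD but lay 198 bp from an HFD peak.

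Most genes with a member in the record had just 1, namely 1343 of 1510. Those with the most were picked out after their values were seen. Zfhx3, a large homeobox transcription factor gene, held 7 members among 89 merged regions (7.87%). Cntnap4, a neuronal adhesion gene, held 4 of 15, and Inf2, a formin gene of 26.8 kb on chromosome 12, 3 of 7. Of 919 autosomal microRNA hairpins in the RefSeq table, 2 overlapped members, Mir7023 on chromosome 4 (70.6 in ND, 64.7 in FAD) and Mir7065 on chromosome 8 (83.0 in ND, 83.0 in FAD). Hairpins were not counted for other patterns or for all regions, so the 2 show no trait particular to members.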

How the data were processed

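Peaks came from 3 MeDIP-seq libraries, 1 per diet, grouped by the labels. The authors deposited 1 peak list per library, with coordinates on mm10, a build the submitters' processing notes name. A MACS prefix stands in the names of the peaks, per the files. The labels do not state its version, settings or control, the aligner, or how duplicate and multiply placed reads were handled. The deposited score of each peak is the authors' own and has no stated scale, so it served to rank peaks within a list. Peaks were called per library, so a missing peak depends on depth, which is unknown, as well as on methylation.

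Autosomal peaks sharing 1 bp were merged, coordinates are 1-based, and distances count the bases between intervals. Percentiles are ranks within the whole list. Genes came from a RefSeq table of GRCm38.p6 (20665 protein-coding genes on autosomes), and start sites and strand from its promoter table, which covers 18 of the 19 autosomes. No test was made: with 1 library per diet, counts are set beside those of all regions or genes, with Wilson 95% intervals.

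Members and gene lists were chosen with earlier results of these data known. Text names the 12 regions with the highest mean percentile of ND and FAD scores, the 12 highest with no HFD peak within 5000 bp, the 5 widest, the 5 farthest from HFD, the 3 with most peaks, the 20 highest genes and up to 5 members of each list at a gene end. Not all are printed, and gene-model symbols (Gm with digits, or a Rik ending) were skipped when naming genes, for promoters LOC symbols too. List genes with a member inside the record were outside this rule and were chosen after their values were seen. Some genes are not reported here. Merged regions equalled those of bedtools 2.31.1 in all 154503 cases, and 200 of 200 members planted in simulated lists were recovered. The planted regions lay far apart with peaks that always overlapped, so their recovery checks the code and not the member calls. Alternatives were score limits, equal list lengths of 95501 peaks, chromosomes X and Y, reciprocal overlap, joining, distance, width and gene windows. Computing used pandas 2.3.3 and numpy 2.4.6 under Python 3.11.15, with intervals from scipy 1.17.1 and plots from matplotlib 3.10.9.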

Additional observations from a re-analysis of the deposited data

Results flagged for a closer look

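The sex chromosomes lie outside the rule that chose the regions, but they hold peaks of the same kind, which no comparison above used. On chromosome Y, 343 of 2994 merged regions (11.5%, Wilson 95% interval 10.4 to 12.6%) were in ND and FAD and not HFD, against 2.31% on autosomes. There, 183 were missing in FAD and 140 missing in ND, so the pattern that is rarest on autosomes was the most common of the 3 on Y. HFD held fewer Y peaks than the other libraries, 1879 against 2309 in ND and 2274 in FAD, although its whole list is the longest. On chromosome X, 195 of 4180 merged regions (4.67%, 4.07 to 5.35%) had the pattern, beside 319 missing in FAD and 199 missing in ND. Peak numbers on X were 3160 in ND, 3152 in HFD and 2875 in FAD. Scores of the Y regions had medians of 87.0 in ND and 77.8 in FAD and reached 539.1 in ND. Much of chromosome Y consists of near-identical gene copies, where reads cannot be placed with certainty. The part of such reads, and of depth, in these counts was not tested.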

How the results depend on the processing

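With 1 library per diet no library could be left out. No paired analysis was possible because each diet has 1 library, so the diets share fewer than 2 replicate numbers. Alternatives were run for the pattern counts, the gene-end share and the gene and list counts, and none of these changed sign, which counts cannot do. Scores, distances and positions were not recomputed. The number of regions in ND and FAD and not HFD, 3569, became 2017 with the top-scoring 50% of each list, 169 with the top-scoring 50% of ND and FAD and all HFD peaks, 7811 with lists of equal length and 1405 with no HFD peak within 5000 bp. Their share of merged regions, 2.31%, became 2.65, 0.128, 6.05 and 0.909% in that order. It was 2.54% with chromosomes X and Y, 2.14% with reciprocal overlap of 50%, 2.20% with peaks within 500 bp joined and 3.07% without the narrowest 10% of peaks. Regions in ND and HFD and not FAD, 17151, became 8484 in the top-scoring 50%, 10403 at equal length and 10707 without a FAD peak within 5000 bp. Regions in HFD and FAD and not ND, 13048, became 6372 in the top-scoring 50% and 7761 without an ND peak within 5000 bp. The share of members touching a gene end, 4.37%, was 3.55% for the top-scoring 50% of ND and FAD with all HFD peaks, 2.99% with no HFD peak within 5000 bp, 3.70% with windows of 1000 bp and 46.0% over whole gene records. The 168 genes became 94 in the top-scoring 50% of each list, 7 with all HFD peaks kept, 404 at equal length, 43 with no HFD peak within 5000 bp and 1510 over whole records. The 16 list genes became 47 at equal length, 7 with no HFD peak within 5000 bp and 154 over whole records. Beyond the alternatives' own construction the causes were not tested. Counts for single lists moved in 60 cases and stayed in 164. Depth is unknown, so a missing peak cannot be told apart from a shallower library.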
